A study of Oryza sativa with 12 samples.

Results

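The genes described here are the heat shock factors and chaperones of rice leaves, 55 genes of the 13674 that 4 deposited tables of expression values list. A gene was taken when its name held HSP, HSF or HSC70, DjA, DjB or DjC followed by a digit, or ClpB. The rule itself used names only. Measured values still decided which family members could enter, because the tables list only genes the authors had called changed. By name they comprise 17 heat shock factors, 1 HSP100, 2 HSP90, 4 HSP70, 19 J-proteins and 12 small HSPs. Only 5422 of the listed genes carry a name, so unnamed relatives are not covered. RNA came from leaves of 2 rice varieties, QJ10 (QJ) and LJ31 (LJ). Plants were either controls or exposed to a bicarbonate form of salt-alkali stress at a concentration of 200 mmol/L. The 4 groups are QJ controls, stressed QJ, LJ controls and stressed LJ, with 3 libraries each. All 12 libraries were made from leaf total RNA. No source used here gives plant age, how long the stress lasted or how many plants a library holds, though the series calls the replicates biological.

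Heat shock factors are transcription factors that bind heat shock elements in promoters and switch on chaperone genes when proteins misfold. Class A factors carry an activation domain, class B factors lack it and several of them act as repressors, and class C factors also lack it. Chaperones then act in layers. Small HSPs hold unfolding proteins without using ATP, HSP70 refolds them in cycles of ATP use, J-proteins deliver clients to HSP70 and speed its ATPase, HSP90 finishes the folding of signalling proteins, and HSP100 pulls proteins out of aggregates. Drought, salt and oxidative stress also engage this system in plants, and some members serve seed, flower or organelle development without any stress.

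Values are FPKM, read fragments divided by transcript length and by library size, so levels can be set beside each other between genes. The variety names rest on the column headers, since the titles of both stress tables name the other variety. Each table lists only genes the authors had already called changed between its pair of groups, so the 55 are the named family members called at least once and not whole families. Library depth is unknown because no source used here gives read totals, and no counting interval could be computed. Of the 55, 26 had values in all 12 libraries, 18 in 3 groups and 11 in 2 groups. Library values lay close together, with a median coefficient of variation of 4.42% over the 109 member and group pairs at a mean of at least 5 FPKM and a range of 0.27% to 67.5%. The spread behind each p-value is that between these libraries, and in bulk leaf RNA fewer cells of a type and less RNA per cell cannot be told apart. For the leaf label, 13 photosynthesis genes with 12 values were looked at, none at 0. They summed to 12764 to 13083 FPKM in the QJ controls, 3385 to 3475 in stressed QJ, 8863 to 8882 in LJ controls and 1564 to 1604 in stressed LJ. Values above 0 cannot exclude other tissue in a library, and markers of other tissues are given below.

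**Figure D1:**
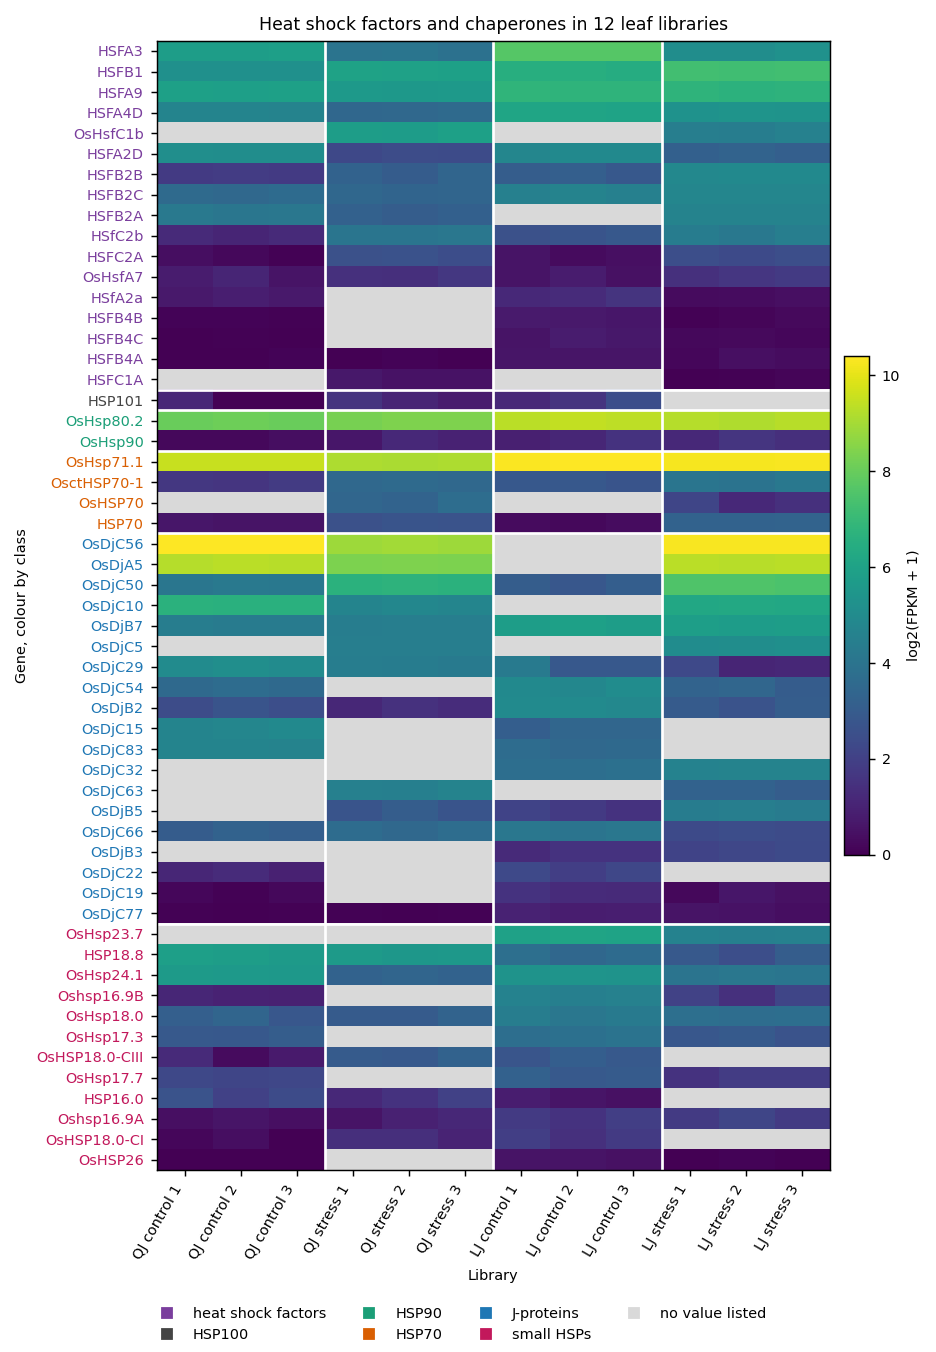
Level of each of the 55 genes (rows, grouped and coloured by class) in each of the 12 libraries (columns), as log2(FPKM + 1), with grey where no value was listed. The brightest rows are OsHsp71.1, OsDjC56, OsHsp80.2 and OsDjA5, and most small HSPs and several heat shock factors are dark.

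The levels spanned a wide range. In 8 members the highest group mean was at least 100 FPKM, and in 6 it was under 1 FPKM. Among the 26 members with all 12 values the highest group was the LJ controls in 11, stressed LJ in 10, the QJ controls in 4 and stressed QJ in 1. The lowest group was the QJ controls in 11, stressed QJ in 9 and each LJ group in 3. The share of all genes with each order was not computed. Higher values in LJ were common among all genes. In a joint fit of all 12 libraries 58.0% of 5170 genes were lower in QJ in the controls (limma, adjusted p under 0.05). Under stress 60.5% were.

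Differences were tested with limma on log2(FPKM + 1), per table and over all its genes, keeping genes that reached 1 FPKM in 3 or more libraries, and passed at an adjusted p under 0.05. Folds are from that fit, and the added 1 makes them smaller than ratios of means for low genes. Under stress in QJ, 9 of 20 tested members rose and 10 fell, beside 50.7% higher and 49.0% lower among all 3641 tested genes (99.7% passing either way). Under stress in LJ, 10 of 23 rose and 13 fell, beside 49.6% and 50.0% of 5990 genes (99.7% passing either way). Since the authors had selected these genes on the same libraries, almost everything passed and the shares say nothing particular about the members. The median member difference was log2 -0.04 in QJ and -1.01 in LJ, against 0.66 and -0.54 for all tested genes. These medians fall between separate groups of rises and falls and depend on which genes are tested. Without any 1 stressed QJ library they became -0.98 to -0.94 for members and -0.73 to -0.72 for all genes in QJ, and without any 1 LJ control library the median of all genes in LJ became 0.84 to 0.85. With no filter on low values the QJ medians were 0.67 for members and 0.33 for all genes, so no order between members and all genes is read from them. The 11 members listed in both stress tables all moved the same way in each, 7 up and 4 down, while 92.1% of the 2338 genes in both tables did so.

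Of the 4 class A heat shock factors tested in each stress table, 3 fell and 1 rose. HSFA3 (Os02g0527300), which in Arabidopsis acts below DREB2A in heat and drought responses, stood at 54.8, 55.2 and 57 FPKM in the QJ controls and 15, 15.5 and 13.8 in stressed QJ. In LJ it stood at 199, 202 and 204 in the controls and 33.5, 33.3 and 37 under stress. The LJ controls were far above every other group, and no 2 of the 4 groups overlapped. HSFA3 fell under stress by 3.59-fold in QJ (log2 -1.84, SE 0.0559, adjusted p = 1.78e-08) and by 5.71-fold in LJ (log2 -2.51, SE 0.0451, adjusted p = 8.81e-10).

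HSFA2D (Os03g0161900), a rice factor linked to tiller angle through auxin distribution, stood at 34, 33.3 and 33.4 FPKM in the QJ controls and 3.75, 4.4 and 4.27 under stress. In LJ it stood at 26.8, 29.7 and 29.9 and 8.12, 8.94 and 7.82. The groups again did not overlap, with the QJ controls highest and stressed QJ lowest. It fell by 6.73-fold in QJ (log2 -2.75, SE 0.073, adjusted p = 8.78e-09) and by 3.21-fold in LJ (log2 -1.68, SE 0.0721, adjusted p = 1.00e-07). HSFA4D (Os05g0530400), the Spl7 gene whose loss gives spotted leaves in rice, stood at 25.3, 24.6 and 24 FPKM in the QJ controls, 10.1, 10.6 and 11.3 in stressed QJ, 67.6, 67 and 64.9 in the LJ controls and 38.9, 40.3 and 39.1 in stressed LJ. Stressed libraries were lower than controls of the same variety, and all LJ libraries were above all QJ libraries. It fell in QJ (log2 -1.14, SE 0.0634, adjusted p = 6.06e-07). The LJ stress table does not list it.

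HSFA9 (Os03g0224700), whose Arabidopsis counterpart works in seed maturation, was nevertheless measured in these leaf libraries at 59.2, 57.7 and 59 FPKM in the QJ controls and 48.1, 46 and 48.6 in stressed QJ. In LJ it stood at 111, 108 and 109 and 109, 103 and 104. The 2 LJ groups overlapped, and all LJ libraries were above QJ. OsHsfA7 (Os01g0571300), whose overexpression improves salt and drought tolerance in rice, was low. It stood at 0.71, 1.14 and 0.48 FPKM in the QJ controls, 1.73, 1.63 and 2.19 in stressed QJ, 0.46, 0.71 and 0.37 in the LJ controls and 1.73, 2.1 and 2.41 in stressed LJ. Each stressed group was above its own controls, and the varieties overlapped. OsHsfA7 rose in QJ (log2 0.69, SE 0.155, adjusted p = 0.00265) and LJ (log2 1.03, SE 0.126, adjusted p = 6.88e-05). HSfA2a (Os03g0745000), of the A2 type that amplifies heat responses in Arabidopsis, was at 1.28, 1.46 and 2 FPKM in the LJ controls, 0.22, 0.26 and 0.34 in stressed LJ and 0.64, 0.85 and 0.65 in the QJ controls. It fell in LJ (log2 -1.01, SE 0.119, adjusted p = 5.46e-05).

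**Figure D2:**
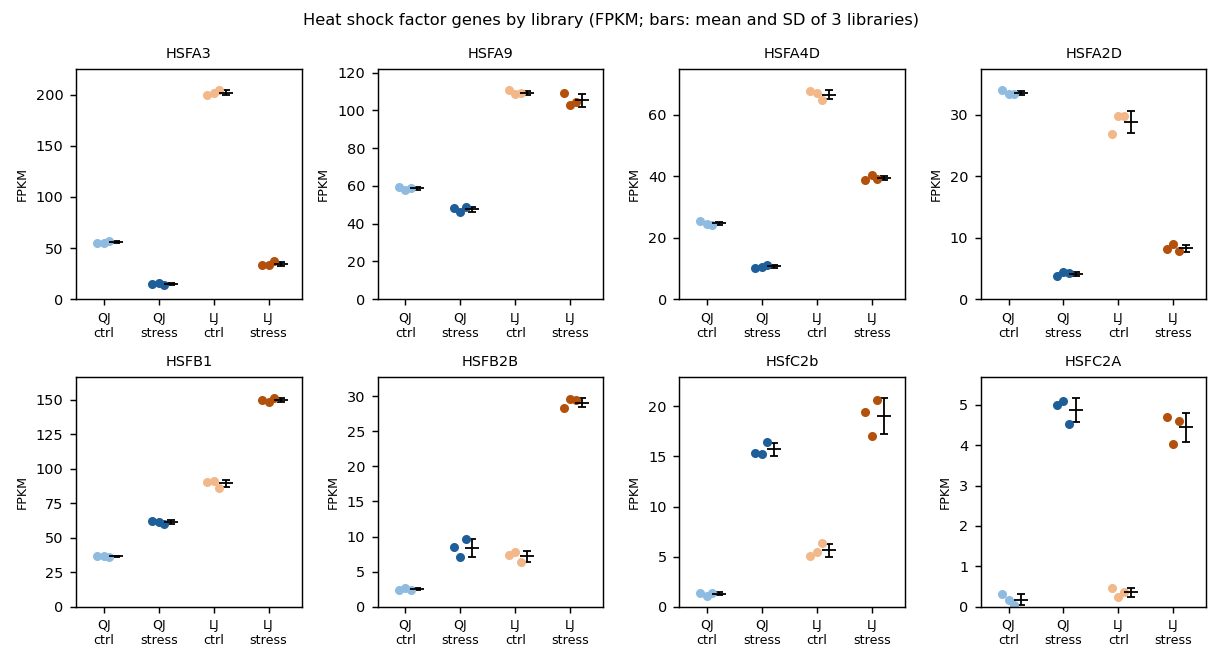
FPKM of 8 heat shock factor genes in each library (points) by group, with the mean and SD of 3 libraries (bars), linear axes starting at 0. HSFA3, HSFA4D and HSFA2D are lower under stress in each variety, HSFB1, HSFB2B, HSfC2b and HSFC2A higher, and HSFA3, HSFA9, HSFA4D and HSFB1 are higher in LJ controls than in QJ controls.

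The class B factors did not share one direction. HSFB1 (Os09g0456800), of a type that represses other heat shock genes in Arabidopsis, stood at 36.6, 36.9 and 36.2 FPKM in the QJ controls, 62.3, 61.5 and 59.9 in stressed QJ, 90.5, 91.1 and 86.3 in the LJ controls and 150.2, 149 and 152 in stressed LJ. The 4 groups did not overlap, and stressed LJ was highest. HSFB2B (Os08g0546800), a negative regulator of drought and salt tolerance in rice, stood at 2.42, 2.62 and 2.37 FPKM in the QJ controls and 8.54, 7.1 and 9.66 in stressed QJ. In LJ it stood at 7.3, 7.86 and 6.34 and 28.3, 29.6 and 29.4. Stressed QJ overlapped the LJ controls, and stressed LJ was above all other libraries. It rose by 2.7-fold in QJ (log2 1.43, SE 0.121, adjusted p = 7.87e-06) and by 3.7-fold in LJ (log2 1.89, SE 0.0787, adjusted p = 8.61e-08).

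The other class B genes were HSFB2A, HSFB2C and the HSFB4 group, whose Arabidopsis counterpart sets root cell fate. HSFB2A (Os04g0568700) was at 17.4, 16.2 and 16.7 FPKM in the QJ controls, 8.46, 7.37 and 8.07 in stressed QJ and 24.09, 24.5 and 24.3 in stressed LJ, and it fell in QJ (log2 -0.99, SE 0.0749, adjusted p = 4.16e-06). HSFB2C (Os09g0526600) had means of 10.9 ± 0.534 FPKM (SD, n = 3) in the QJ controls, 9.7 ± 0.413 in stressed QJ, 22.9 ± 1.11 in the LJ controls and 26.4 ± 0.214 in stressed LJ. Its change under stress was small beside the excess in LJ. HSFB4A, HSFB4B and HSFB4C had means of 0.517, 0.627 and 0.603 FPKM in the LJ controls and 0.02, 0.0633 and 0.0133 in the QJ controls, and 0.253, 0.117 and 0.17 in stressed LJ. None of the 3 reached the 1 FPKM filter, so no test is given for them.

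Both class C2 factors rose strongly. HSfC2b (Os06g0553100) stood at 1.37, 1.11 and 1.36 FPKM in the QJ controls and 15.4, 15.3 and 16.5 in stressed QJ. In LJ it stood at 5.06, 5.49 and 6.36 and 19.4, 17.1 and 20.7. The groups did not overlap, and the QJ controls were lowest. It rose by 7.34-fold in QJ (log2 2.88, SE 0.0938, adjusted p = 2.66e-08, a ratio of means of 12.3) and by 3.02-fold in LJ (log2 1.60, SE 0.101, adjusted p = 1.08e-06). HSFC2A (Os02g0232000) stood at 0.32, 0.16 and 0.05 FPKM in the QJ controls, 4.99, 5.11 and 4.54 in stressed QJ, 0.46, 0.25 and 0.36 in the LJ controls and 4.69, 4.03 and 4.61 in stressed LJ. It was at most 0.46 FPKM in all 6 control libraries and between 4.03 and 5.11 FPKM in all 6 stressed ones. HSFC2A rose in QJ (log2 2.33, SE 0.116, adjusted p = 3.07e-07) and in LJ (log2 2.01, SE 0.104, adjusted p = 3.09e-07).

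The remaining class C genes were listed in the stressed groups only. OsHsfC1b (Os01g0733200), which supports salt tolerance and abscisic acid responses in rice, was at 55.1, 53.6 and 58.6 FPKM in stressed QJ and 21.1, 20.5 and 22.7 in stressed LJ. Stressed QJ was higher without overlap (log2 1.34, SE 0.0554, adjusted p = 7.73e-08). HSFC1A was at a mean of 0.473 FPKM in stressed QJ and 0.0467 in stressed LJ and fell under the filter. Of the heat shock factors tested, 4 rose and 4 fell in QJ, and 4 rose and 3 fell in LJ. Split by class letter, 1 class A factor rose and 3 fell in each variety, while both tested class C factors rose in each. Among all genes tested 50.7% rose and 49.0% fell in QJ, and 49.6% and 50.0% in LJ. With so few genes per letter no class pattern is read from these counts.

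Among the large chaperones the disaggregase HSP101 (Os05g0519700), of the ClpB type needed for acquired heat tolerance, was low. It stood at 1.22, 0.04 and 0.04 FPKM in the QJ controls, 1.96, 1.09 and 0.75 in stressed QJ and 1.27, 1.93 and 4.47 in the LJ controls. QJ control replicate 1 lay among the stressed values, so the groups overlapped, the only case among members in a table that lists them. Listing required the authors' call on these same libraries, so the separation of other listed members was largely set by selection. The share of listed genes without overlap was not computed. The QJ stress difference did not pass (log2 0.72, SE 0.324, adjusted p = 0.0586). It passed without stressed QJ replicate 3 (log2 0.89, adjusted p = 0.04996).

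For HSP90, OsHsp80.2 (Os09g0482400) stood at 258, 274 and 264 FPKM in the QJ controls, 306, 335 and 339 in stressed QJ, 649, 694 and 662 in the LJ controls and 599, 573 and 622 in stressed LJ. The LJ groups were above the QJ groups and no groups overlapped. OsHsp90 (Os09g0482550) was low, at 0.16, 0.16 and 0.29 FPKM in the QJ controls, 0.53, 1.29 and 0.99 in stressed QJ, 0.89, 1.19 and 1.84 in the LJ controls and 1.31, 2.05 and 1.68 in stressed LJ. No source used here says how reads shared by near-identical copies were counted. The split between such HSP90 genes, and between the HSP70, Oshsp16.9 and OsHsp17 copies below, is therefore uncertain.

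Of the HSP70 genes, OsHsp71.1 was high, and HSP70 and OsctHSP70-1 were low and rose. OsHsp71.1 (Os03g0276500) stood at 739, 744 and 742 FPKM in the QJ controls, 552, 542 and 565 in stressed QJ, 1312, 1346 and 1358 in the LJ controls and 1247, 1237 and 1279 in stressed LJ. Each stressed group was somewhat lower than its controls, and LJ was above QJ throughout. The gene named HSP70 (Os03g0277300) stood at 0.53, 0.45 and 0.48 FPKM in the QJ controls, 4.96, 5.59 and 5.38 in stressed QJ, 0.23, 0.17 and 0.26 in the LJ controls and 8.61, 8.59 and 8.88 in stressed LJ. It was under 1 FPKM in all 6 control libraries and rose in QJ (log2 2.08, SE 0.095, adjusted p = 1.78e-07) and LJ (log2 2.99, SE 0.087, adjusted p = 1.08e-08).

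OsctHSP70-1 (Os05g0460000) stood at 2.18, 2.01 and 2.53 FPKM in the QJ controls and 10.5, 11 and 10.5 in stressed QJ. In LJ it stood at 6.27, 6.29 and 5.54 and 15.7, 14.5 and 16.7. No groups overlapped, and it rose by 3.61-fold in QJ (log2 1.85, SE 0.0964, adjusted p = 4.00e-07) and by 2.37-fold in LJ (log2 1.24, SE 0.0818, adjusted p = 1.37e-06). OsHSP70 (Os01g0721000) was at 9.82, 8.91 and 12.1 FPKM in stressed QJ and 3.58, 1.27 and 1.74 in stressed LJ, where replicate 1 was the highest. Stressed QJ was higher (log2 1.87, SE 0.251, adjusted p = 1.25e-04).

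**Figure D3:**
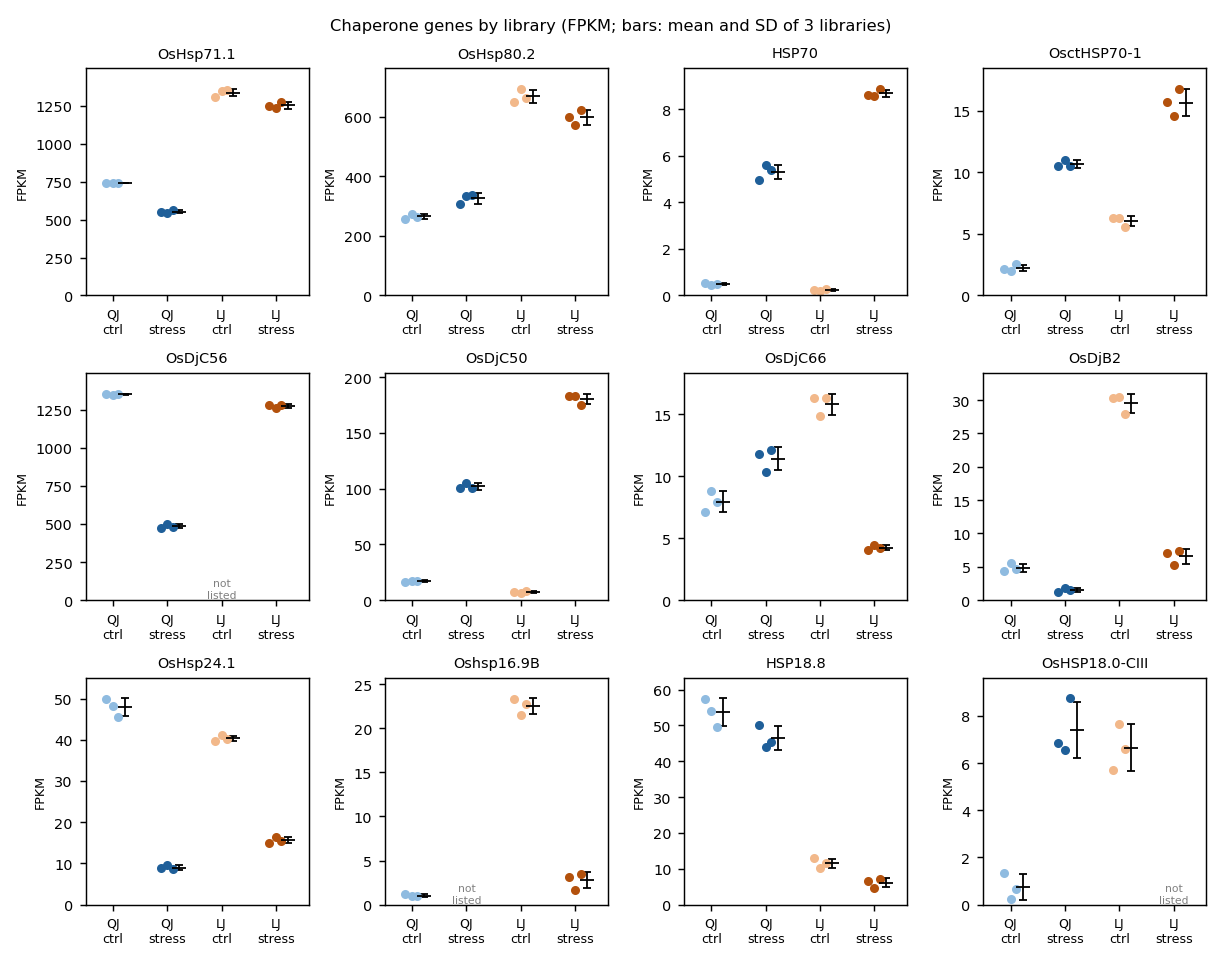
FPKM of 12 chaperone genes in each library (points) by group, with the mean and SD of 3 libraries (bars), linear axes starting at 0, and "not listed" where no value was listed. HSP70, OsctHSP70-1 and OsDjC50 are higher under stress in each variety, OsDjB2 and OsHsp24.1 lower, and OsDjC66 is higher under stress in QJ and lower in LJ.

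The J-proteins comprise 1 DjA gene, with J domain and zinc finger, 4 DjB genes, which lack the zinc finger, and 14 DjC genes, which share only the J domain. OsDjC56 (Os06g0650900) had the highest listed group mean of the 55 members, 1353 FPKM in the QJ controls beside 1338 for OsHsp71.1 in the LJ controls, where OsDjC56 is not listed. It stood at 1357, 1349 and 1354 FPKM in the QJ controls, 475, 501 and 478 in stressed QJ and 1282, 1264 and 1282 in stressed LJ. Stressed QJ was far below the other groups, which did not overlap. It fell by 2.79-fold in QJ (log2 -1.48, SE 0.0243, adjusted p = 7.66e-10). OsDjA5 (Os03g0787300) was at 614, 635 and 631 FPKM in the QJ controls, 324, 339 and 326 in stressed QJ and 639, 627 and 643 in stressed LJ. Stressed LJ overlapped the QJ controls, while stressed QJ was lower (log2 -0.92, SE 0.0258, adjusted p = 1.15e-08). OsDjC10 (Os01g0606900) showed the same order as OsDjC56, with 98.2, 96.4 and 97.6 FPKM in the QJ controls, 25.2, 26.8 and 25.6 in stressed QJ and 74.5, 77.8 and 74.9 in stressed LJ, and fell by 3.66-fold in QJ (log2 -1.87, SE 0.0396, adjusted p = 2.51e-09).

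OsDjC50 (Os05g0529700) rose most of all members in LJ. It stood at 16, 17.5 and 16.89 FPKM in the QJ controls, 100.5, 105 and 100.05 in stressed QJ, 7.35, 6.02 and 7.69 in the LJ controls and 183, 183 and 175 in stressed LJ. Without stress it was higher in QJ, and under stress it was higher in LJ. It rose by 5.79-fold in QJ (log2 2.53, SE 0.0483, adjusted p = 1.47e-09) and by 22.7-fold in LJ (log2 4.51, SE 0.0792, adjusted p = 7.90e-10). OsDjC66 (Os08g0548400) stood at 7.15, 8.8 and 7.88 FPKM in the QJ controls, 11.8, 10.3 and 12.1 in stressed QJ, 16.3, 14.8 and 16.3 in the LJ controls and 4.07, 4.45 and 4.17 in stressed LJ. The groups did not overlap, and the order of the varieties was exchanged between control and stress. It fell by 3.22-fold in LJ (log2 -1.69, SE 0.0748, adjusted p = 1.25e-07).

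OsDjB2 (Os01g0875700) stood at 4.4, 5.51 and 4.66 FPKM in the QJ controls, 1.26, 1.82 and 1.52 in stressed QJ, 30.3, 30.4 and 27.9 in the LJ controls and 7.04, 5.29 and 7.36 in stressed LJ. Its LJ controls stood far above the rest, and stressed LJ overlapped the QJ controls. OsDjB2 fell in QJ (log2 -1.21, SE 0.126, adjusted p = 2.95e-05) and LJ (log2 -2.02, SE 0.111, adjusted p = 4.47e-07). OsDjB5 (Os05g0127400) was at 3.22, 2.42 and 1.89 FPKM in the LJ controls, 19.6, 20.9 and 19.1 in stressed LJ and 5.56, 7.51 and 5.43 in stressed QJ. It rose by 6-fold in LJ (log2 2.59, SE 0.136, adjusted p = 3.43e-07).

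OsDjC29 (Os03g0323600) stood at 31.8, 34 and 31.8 FPKM in the QJ controls, 20.4, 19.8 and 18.4 in stressed QJ, 18.3, 6.2 and 6.37 in the LJ controls and 3.85, 1.12 and 1.26 in stressed LJ. Replicate 1 was about 3 times the other libraries in each LJ group, and the groups still did not overlap. It fell in LJ (log2 -1.82, SE 0.449, adjusted p = 0.00429). OsDjC15 (Os01g0977200) was at 25.3, 26.6 and 29.6 FPKM in the QJ controls and 7.67, 9.81 and 9.94 in the LJ controls, without overlap.

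The other 10 J-protein genes had highest group means of 0.86 to 56.6 FPKM, the highest of them OsDjB7 in the LJ controls. Under stress in LJ, OsDjB3 rose from 1.7 ± 0.283 to 3.65 ± 0.352 FPKM (SD, n = 3) and OsDjC32 from 13 ± 0.475 to 24 ± 0.656, while OsDjC54 fell from 29.8 ± 2.47 to 8.61 ± 1.35 and OsDjC19 from 1.54 ± 0.284 to 0.357 ± 0.18. Between the controls, OsDjC22 had a mean of 1.19 ± 0.23 FPKM in QJ and 3.43 ± 0.567 in LJ, and OsDjC83 24.4 ± 0.355 and 10.9 ± 0.639. Between the stressed groups, OsDjC5 had 21 ± 0.21 in QJ and 33.8 ± 1.41 in LJ, and OsDjC63 22.8 ± 1.55 and 8.19 ± 0.615. OsDjB7 had 19.6 ± 0.774 FPKM in the QJ controls and 56.6 ± 2.9 in the LJ controls, beside 20.9 ± 0.333 in stressed QJ and 54.4 ± 1.9 in stressed LJ. OsDjC77 stayed under 1 FPKM in every library and was not tested. In all, 1 J-protein rose and 4 fell in QJ, and 4 rose and 5 fell in LJ. Among all genes tested 50.7% rose and 49.0% fell in QJ, and 49.6% and 50.0% in LJ.

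Of 12 small HSPs, 5 were tested for stress in LJ and all 5 fell, beside 50.0% lower among all genes tested there. In QJ 4 were tested, of which 2 rose and 2 fell, beside 50.7% higher and 49.0% lower among all genes tested. With so few genes, selected on the same libraries, no class pattern is read from these counts. OsHsp24.1 (Os02g0758000) stood at 49.8, 48.3 and 45.5 FPKM in the QJ controls, 8.78, 9.58 and 8.67 in stressed QJ, 39.8, 41.1 and 40.2 in the LJ controls and 15, 16.4 and 15.4 in stressed LJ. The groups did not overlap, and it fell by 4.88-fold in QJ (log2 -2.29, SE 0.0627, adjusted p = 1.06e-08) and by 2.49-fold in LJ (log2 -1.32, SE 0.0493, adjusted p = 4.50e-08). HSP18.8 (Os07g0517100) stood at 57.5, 53.9 and 49.7 FPKM in the QJ controls, 50.2, 44 and 45.2 in stressed QJ, 12.9, 10.3 and 11.5 in the LJ controls and 6.53, 4.68 and 7.28 in stressed LJ. All 6 QJ libraries were above all 6 LJ libraries, and the 2 QJ groups overlapped.

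Oshsp16.9B (Os01g0136200), a cytosolic class I protein, was at 1.17, 1 and 0.93 FPKM in the QJ controls, 23.3, 21.5 and 22.7 in the LJ controls and 3.13, 1.72 and 3.52 in stressed LJ. The LJ controls were far above the other groups, and it fell by 6.33-fold in LJ under stress (log2 -2.66, SE 0.178, adjusted p = 1.54e-06). OsHsp23.7 (Os12g0569700) was at 61.3, 66 and 65.2 FPKM in the LJ controls and 23.6, 22.4 and 22.9 in stressed LJ (log2 -1.44, SE 0.045, adjusted p = 1.58e-08). OsHSP18.0-CIII (Os02g0782500) was at 1.34, 0.22 and 0.68 FPKM in the QJ controls, 6.87, 6.56 and 8.75 in stressed QJ and 5.69, 7.67 and 6.58 in the LJ controls. Stressed QJ overlapped the LJ controls, and the gene rose in QJ (log2 2.31, SE 0.234, adjusted p = 2.46e-05).

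The other 7 small HSP genes had highest group means of 0.44 to 18.4 FPKM. In QJ under stress OsHSP18.0-CI rose from 0.143 ± 0.145 to 1.46 ± 0.358 FPKM (SD, n = 3), and HSP16.0 fell from 4.2 ± 1.1 to 2.08 ± 0.869. In LJ under stress OsHsp17.3 fell from 13.4 ± 0.991 to 6 ± 0.672 FPKM and OsHsp17.7 from 7.28 ± 0.996 to 2.33 ± 0.427. These 2 genes lie 2 protein-coding positions apart on chromosome 3 in the RefSeq annotation of assembly ASM3414082v1. OsHsp18.0 had means of 7.9 ± 1.73 FPKM in the QJ controls, 7.59 ± 1.07 in stressed QJ, 18.4 ± 1.77 in the LJ controls and 12.6 ± 0.452 in stressed LJ. Oshsp16.9A was lower in QJ, with 0.397 ± 0.0896 FPKM in its controls against 2.39 ± 0.508 in the LJ controls. OsHSP26, a chloroplast small HSP, was listed at 0 in all QJ controls, at a mean of 0.443 FPKM in the LJ controls and 0.0267 in stressed LJ, too low to be tested. Of the small HSPs that the LJ stress table leaves out, Oshsp16.9A had a joint-fit difference there that did not pass (log2 0.14, adjusted p = 0.45).

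The comparison of the varieties without stress asked which members differed before treatment. Of 31 tested members 6 were higher and 25 lower in QJ, beside 31.1% higher and 68.6% lower among all 6108 tested genes (99.7% passing either way). The members' median of log2 -1.14 lay near the -1.02 of all tested genes, so a lower level in QJ was not particular to them. All 8 heat shock factors tested in that table were lower in QJ, as were OsHsp71.1 and OsctHSP70-1, although HSfA2a turned to log2 0.02 when libraries were centred on their medians, which moved the median of all genes from -1.02 to -0.41. OsHsp17.7 and HSP101 also lost their calls under that centring (log2 -0.22, adjusted p = 0.0826 and log2 -0.70, adjusted p = 0.120).

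The differences at the ends of the range were large. Oshsp16.9B was lower in QJ by 11.6-fold (log2 -3.53, SE 0.0826, adjusted p = 4.50e-09, a ratio of means of 21.7), OsDjB2 by 5.23-fold (log2 -2.39, SE 0.0852, adjusted p = 4.41e-08) and HSFA3 by 3.58-fold (log2 -1.84, SE 0.0285, adjusted p = 6.64e-10). OsHSP18.0-CIII was also lower in QJ (log2 -2.17, SE 0.229, adjusted p = 2.92e-05). HSP18.8 was higher in QJ by 4.37-fold (log2 2.13, SE 0.0877, adjusted p = 9.93e-08), OsDjC29 by 3.32-fold (log2 1.73, SE 0.349, adjusted p = 0.00145) and OsDjC15 by 2.79-fold (log2 1.48, SE 0.105, adjusted p = 2.57e-06). The other members higher in QJ were HSP16.0, OsDjC50 and OsDjC83. Members that the table of the controls leaves out were compared in a joint fit of all 12 libraries, in which 89.2% of 5170 genes passed, 31.2% higher and 58.0% lower. It gave log2 0.22 for HSFA2D, 0.24 for OsHsp24.1 and 0.29 for HSP70 (adjusted p = 0.0116, 0.0011 and 0.00392), and neither OsHsfA7 nor HSFC2A passed. These differences are small beside the gap of 0.150 between FPKM ratios and the authors' log2 fold changes in the controls. They were not tested under the authors' scaling. HSP70 was also under 1 FPKM in every control library, which allows no firm comparison.

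Markers of other tissues differed between these same libraries. Of 15 matched anther and floral genes, 7 had all 12 values and summed to 38.7 to 46.0 FPKM in the QJ controls, 42.8 to 45.9 in stressed QJ, 434 to 443 in LJ controls and 161 to 167 in stressed LJ. MADS14 carried most of this sum outside the LJ controls, and without it the other 6 genes summed to 1.58 to 2.20 FPKM in the QJ controls, 1.27 to 1.96 in stressed QJ, 232 to 242 in LJ controls and 9.99 to 10.2 in stressed LJ. RTS, EAT1, OsMADS7 and OsMADS13 were at 0 in the QJ controls, OSC6 in stressed QJ and RTS in stressed LJ. Of 25 secondary wall genes, 16 had all values and summed to 42.4 to 44.3 FPKM in the QJ controls, 13.8 to 15.4 in stressed QJ, 605 to 625 in LJ controls and 66.0 to 69.2 in stressed LJ. At 0 were OsFLA19, OsFLA21 and OsFLA25 in the QJ controls, OsFLA19 and OsFLA9 in stressed QJ and OsFLA25 in stressed LJ. Oshsp16.9B, OsDjB2 and HSFA3 were highest in the LJ controls too, and the part of other tissue in their values was not tested. Both marker sums also differed between the LJ controls and stressed LJ. The part of other tissue in the members' falls under stress in LJ was therefore not tested either. The same holds for the differences of stress responses between the varieties.

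Under stress, 6 of 29 tested members were higher and 23 lower in QJ than in LJ, beside 34.0% higher and 65.4% lower among all 5662 tested genes (99.4% passing either way), with medians of log2 -0.95 and -0.82. Lower in QJ were 8 of 9 heat shock factors, and OsHsfC1b was higher. The largest differences downward were HSFA4D (log2 -1.80, SE 0.0566, adjusted p = 1.50e-08), HSFB2B (log2 -1.68, SE 0.0998, adjusted p = 7.25e-07) and OsDjB2 (log2 -1.57, SE 0.145, adjusted p = 1.17e-05). The largest upward were OsDjC29 (log2 2.85, SE 0.292, adjusted p = 2.31e-05), HSP18.8 (log2 2.74, SE 0.136, adjusted p = 2.32e-07) and OsHSP70 (log2 1.87, SE 0.251, adjusted p = 1.25e-04). OsDjC63 and OsDjC66 were also higher in QJ. Of members that this table leaves out, the joint fit, in which 91.3% of 5170 genes passed, 30.8% higher and 60.5% lower, gave log2 -0.51 for OsctHSP70-1 and -0.26 for HSfC2b (adjusted p = 7.91e-05 and 0.0207). OsHsp90 was lower (log2 -0.48, SE 0.171, adjusted p = 0.0249), a call lost without any 1 of stressed LJ replicate 2, stressed LJ replicate 3 or stressed QJ replicate 1 (log2 -0.47 to -0.32). Of 19 members in both variety tables, 15 were lower in QJ in each and 2, HSP18.8 and OsDjC29, higher in each. Only OsDjC50 and OsDjC66 changed order, while 95.6% of the 3880 genes in both kept it.

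Whether stress acted differently in the varieties was tested as the difference of the stress responses, QJ minus LJ, over all 12 libraries. Of 24 tested members 8 were higher and 9 lower, beside 41.4% higher and 25.0% lower among all 5170 tested genes (66.4% passing either way), and the member median equalled that of all genes at log2 0.21. When the FPKM were rescaled so that their ratios matched the authors' fold changes at the median, a shift of 0.287 on the log2 scale, the split became 6 higher and 11 lower. Of the 24, 19 kept call and sign under that rescaling. HSFB1 (log2 -0.30, adjusted p = 6.17e-05) and OsHsfA7 (log2 -0.52, adjusted p = 0.0413) gained a call, HSP18.8 and OsHsp18.0 lost theirs, and OsDjB7, which passed under neither, turned from log2 0.14 to -0.13.

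**Figure D4:**
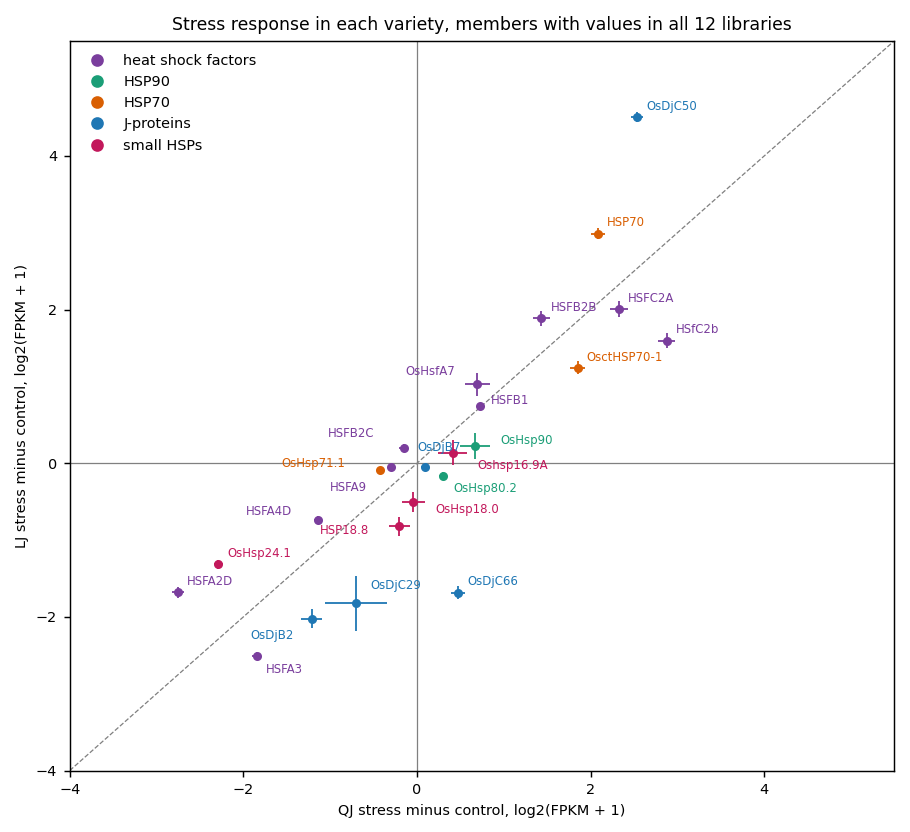
Stress minus control on the log2(FPKM + 1) scale in QJ (horizontal) and LJ (vertical) for the 24 tested members with values in all 12 libraries, from one fit of all libraries, with standard errors as bars and the line of equal responses dashed. OsDjC50 and HSP70 lie above the line, OsDjC66 and HSfC2b below it, and HSFB1 on it.

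OsDjC66 and OsDjC50 had the largest differences, and with the authors' scaling OsDjC50 (log2 -2.26) exceeded OsDjC66 (log2 1.91) in size. OsDjC66 rose in QJ beside a fall in LJ (log2 2.16, SE 0.12, adjusted p = 6.70e-09). OsDjC50 rose less in QJ than in LJ (log2 -1.97, SE 0.0978, adjusted p = 2.22e-09), HSP70 likewise (log2 -0.91, SE 0.11, adjusted p = 1.13e-05), and HSfC2b rose more in QJ (log2 1.28, SE 0.134, adjusted p = 2.89e-06). HSFA2D fell more in QJ (log2 -1.07, SE 0.0993, adjusted p = 9.17e-07), as did OsHsp24.1 (log2 -0.97, SE 0.0769, adjusted p = 2.02e-07). HSFA3 (log2 0.67, SE 0.071, adjusted p = 3.38e-06) and OsDjB2 (log2 0.81, SE 0.172, adjusted p = 0.0011) fell less in QJ than in LJ. Both genes were highest in the LJ controls, as were the floral and secondary wall markers. The part of other tissue in these differences was not tested.

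The other members that passed had smaller differences. These were log2 0.61 for OsctHSP70-1, 0.62 for HSP18.8, 0.47 for OsHsp18.0, 0.46 for OsHsp80.2, -0.45 for HSFB2B, -0.40 for HSFA4D, -0.35 for HSFB2C, -0.33 for OsHsp71.1 and -0.24 for HSFA9. The authors' scaling moved OsHsp80.2 to 0.17, OsctHSP70-1 to 0.34, HSFB2B to -0.72, HSFA4D to -0.67, HSFB2C to -0.62, OsHsp71.1 to -0.62 and HSFA9 to -0.52, all still passing, and HSFA3 to 0.39. HSFB2B lost its call with a pseudocount of 0.1 (log2 -0.29, adjusted p = 0.147). OsHsp18.0 had an adjusted p of 0.0421 and lost its call when any of 8 of the 12 libraries was left out. For HSFB1 the difference did not pass (log2 -0.02, SE 0.0438, adjusted p = 0.777), from rises of log2 0.73 in QJ and 0.74 in LJ. For HSFC2A (log2 0.32, SE 0.147, adjusted p = 0.0728) and OsDjC29 (log2 1.12, SE 0.505, adjusted p = 0.0693) the difference did not pass. That of OsDjC29 passed without LJ control replicate 2 (log2 1.36, adjusted p = 0.0382) or 3 (log2 1.34, adjusted p = 0.0426) and without stressed LJ replicate 1 (log2 1.498, adjusted p = 0.0107). That of HSFC2A passed without QJ control replicate 1 (log2 0.41, adjusted p = 0.0266).

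The fit of all 12 libraries also gave stress differences for members that a stress table does not list, beside 76.2% of 5170 genes passing in QJ (42.6% higher, 33.6% lower) and 83.5% in LJ (38.2% higher, 45.3% lower). In QJ, 4 of 11 rose, 3 fell and 4 did not pass. HSFB1 (log2 0.73, SE 0.0309, adjusted p = 1.98e-10), OsDjC66 (log2 0.47, SE 0.085, adjusted p = 2.32e-04) and OsHsp80.2 (log2 0.30, SE 0.0425, adjusted p = 3.20e-05) rose with Oshsp16.9A (log2 0.41, SE 0.165, adjusted p = 0.0386), which lost its call under the authors' scaling (log2 0.35, adjusted p = 0.0706), under which HSP18.8 passed as a fall (log2 -0.35, adjusted p = 0.0239). OsHsp71.1 (log2 -0.42, SE 0.0194, adjusted p = 4.11e-10), HSFA9 (log2 -0.30, SE 0.0335, adjusted p = 3.60e-06) and HSFB2C (log2 -0.16, SE 0.0568, adjusted p = 0.0252) fell. In LJ, 2 of 11 rose, 5 fell and 4 did not pass. HSFB1 (log2 0.74, SE 0.0309, adjusted p = 1.29e-10) and HSFB2C (log2 0.20, SE 0.0568, adjusted p = 0.00613) rose there. HSP18.8 (log2 -0.82, SE 0.124, adjusted p = 4.36e-05), HSFA4D (log2 -0.74, SE 0.0467, adjusted p = 8.62e-09) and OsHsp18.0 (log2 -0.51, SE 0.131, adjusted p = 0.00313) fell. The falls of OsHsp80.2 (log2 -0.16) and OsHsp71.1 (log2 -0.09) in LJ were within reach of the scaling, since the authors' scaling gave -0.02 and 0.05. Over all 24 members tested in that fit, 9 rose and 11 fell in LJ, and with the authors' scaling 11 rose and 9 fell, with HSFA9 (log2 0.0872, adjusted p = 0.0289) and OsHsp71.1 (adjusted p = 0.0348) among the rises.

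A list of 27 other genes, matched by name, was counted beside the members. It held genes of protein folding, the transcription factor gene OsbZIP60, 3 Clp genes and the galactinol synthase gene OsGolS1. The Clp genes were ClpD1, CLPC2 and CLPC3, whose names the member rule did not take. OsGolS1 was 1 of the 2 rises in QJ below, and CLPC2 was 1 of the 4 rises in LJ. Of those tested, 2 rose and 4 fell in QJ under stress, beside 50.7% higher and 49.0% lower among all genes, and 4 rose and 12 fell in LJ, beside 49.6% and 50.0%. OsBAG3 belongs to the BAG co-chaperones, which bind HSP70 and drive its nucleotide exchange. It was at 4.94, 5.15 and 5.06 FPKM in the QJ controls, 2.47, 2.77 and 2.56 in stressed QJ, 36.1, 34.7 and 37 in the LJ controls and 6.09, 5.46 and 5.71 in stressed LJ. The LJ controls were highest, and OsBAG3 fell in QJ (log2 -0.75) and LJ (log2 -2.45). OsCYP18-4, a cyclophilin that helps proline bonds to turn during folding, rose in QJ from 6.83, 6.68 and 5.46 to 34.9, 32 and 31.6 FPKM (log2 2.21) and in LJ from 11.8, 13.8 and 14.5 to 28.9, 28.4 and 30.1 (log2 1.07). OsBiP1, the HSP70 of the endoplasmic reticulum, was listed in the controls only, at 304, 296 and 295 FPKM in QJ and 138, 133 and 137 in LJ. It was higher in QJ (log2 1.13), while the other 12 of the 13 tested genes of the list were lower, beside 68.6% lower among all genes. Under stress 4 were higher and 9 lower in QJ, beside 34.0% and 65.4%. The difference of responses was higher in 5 of 10, lower in 2 and did not pass in 3, beside 41.4% higher and 25.0% lower among all genes.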

How the data were processed

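The labels give leaf total RNA as the material and NovaSeq X Plus as the sequencer. The authors deposited FPKM per gene and library, log2 fold changes, fold ratios and p-values in 4 tables. As checked on the values, a gene is listed only if the authors' adjusted p was below 0.05 and the fold change was 1 or more in size on the log2 scale. No source used here names the aligner, genome build, counting tool or the authors' test, and no whole-read steps were found in the FPKM. Libraries were matched to samples by title, because the sample descriptions repeat the name of replicate 1 in each QJ group. At the median gene the log2 ratio of FPKM exceeded the authors' log2 fold change by 0.145 for QJ under stress, -0.142 for LJ under stress, 0.150 for the controls and 0.354 for the stressed groups. Reported values are not rescaled for this.

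Limma 3.58.1 (R 4.3.3, trend on) tested log2(FPKM + 1), without pairing. Genes needed at least 1 FPKM in at least 3 libraries, and tests were two-sided with Benjamini-Hochberg adjustment over all genes tested. The difference of responses used genes with all 12 values. Python 3.11.15 with pandas 2.3.3, numpy 2.4.6 and matplotlib 3.10.9 did the rest. The procedure was tested on simulated data in which most genes were unchanged. In the deposited tables nearly all genes had been selected as changed, so that test does not bear on the p-values given here. Per class, the 4 highest members were described in full, with the 3 largest rises and falls per comparison at 5 FPKM or more and the 5 largest differences of responses. OsHsfA7, HSfA2a, HSFB2A, HSFC2A and OsHsfC1b, and 3 genes of other folding proteins, were added after their values were seen. The members and gene lists were chosen with earlier results of these data known. Alternatives were a pseudocount of 0.1, no filter, median centring, the authors' scaling, no trend, a joint fit, a replicate block and single libraries left out. The authors' scaling, and the alternatives of the joint stress differences, were chosen after seeing the data. RefSeq symbols matched 22 of the 55 members.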

Additional observations from a re-analysis of the deposited data

Results flagged for a closer look

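For 17 members the stress response differed between QJ and LJ by the test of the difference itself (limma over all 12 libraries, QJ response minus LJ response on the log2 scale). It was higher in QJ for OsDjC66 (2.16), HSfC2b (1.28), OsDjB2 (0.81), HSFA3 (0.67), HSP18.8 (0.62), OsctHSP70-1 (0.61), OsHsp18.0 (0.47) and OsHsp80.2 (0.46). It was lower in QJ for OsDjC50 (-1.97), HSFA2D (-1.07), OsHsp24.1 (-0.97), HSP70 (-0.91), HSFB2B (-0.45), HSFA4D (-0.40), HSFB2C (-0.35), OsHsp71.1 (-0.33) and HSFA9 (-0.24). These differences are signed. Higher was a smaller fall for HSFA3, OsDjB2, HSP18.8 and OsHsp18.0, though the QJ falls of HSP18.8 and OsHsp18.0 did not pass. For OsDjC66 and OsHsp80.2 it was a rise in QJ beside a fall in LJ. Lower was a larger fall for HSFA2D, OsHsp24.1, HSFA4D, OsHsp71.1 and HSFA9. For HSFB2C it was a fall in QJ beside a rise in LJ. The small LJ values of OsHsp80.2, OsHsp71.1 and HSFA9 changed call or sign with the authors' scaling. Under the authors' scaling HSP18.8 and OsHsp18.0 lost their calls (limma, adjusted p = 0.101 and 0.352). HSFB2B lost its call with a pseudocount of 0.1. Among all 5170 genes tested 66.4% passed, so a difference between the varieties is common in these tables.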

How the results depend on the processing

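The numbers of members that rose or fell stayed within 1.5 times of those reported under the other pseudocount, no filter, median centring, the authors' scaling, no trend and the replicate block. In the joint fit, which holds fewer members, 16 were lower in QJ in the controls instead of 25, and 3 were higher under stress instead of 6. With single libraries left out, the ranges were 6 to 9 risen and 10 fallen in QJ stress, 7 to 10 and 11 to 13 in LJ stress, 5 to 6 higher and 21 to 25 lower in the controls, 6 and 22 to 23 under stress, and 7 to 9 and 9 for the difference of responses. Part of this comes from the filter, which a gene expressed in 1 group no longer meets with 2 libraries left. Correlations of deviations from the group mean were -0.0453 to 0.0588 for equal replicate numbers and -0.0900 to 0.0875 for different ones. Such values near 0 over all genes show no clear pairing by number, but they cannot exclude it. With the replicate block HSP101 in QJ stress (adjusted p = 0.00342) and the difference for OsDjC29 (0.0287) gained a call, as did the fall of OsDjC29 in QJ in the joint fit (0.0396), and the difference for OsHsp18.0 (0.0657) lost it. Median centring turned HSfA2a in the controls to 0.0219 and the differences of responses of OsDjB7 and Oshsp16.9A to -0.15 and -0.0278, and the authors' scaling turned that of OsDjB7 to -0.13. With single libraries left out the difference for HSFB1 ranged from -0.0296 to 0.00887. In the joint fit the authors' scaling turned OsDjB7 to -0.0467 in QJ and 0.0860 in LJ, and HSFA9 to 0.0872 and OsHsp71.1 to 0.0484 in LJ. The difference for HSFB2B lost its call with the pseudocount of 0.1 (-0.29, adjusted p = 0.147). The cause was not tested. Depth is unknown and the values hold 2 decimals, so members under 1 FPKM allow no firm comparison.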
